A study of Homo sapiens with 8 samples.

Results

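The BCL2 family of apoptosis regulators was examined through the 10 genes BCL2, BCL2L1, MCL1, BAX, BAK1, BCL2L11, BBC3, PMAIP1, BAD and BID, chosen by symbol. All 10 were found among the 26475 gene rows of the deposited count table. The libraries come from BT474 cells, a long-established breast tumour line of luminal type in which the ERBB2 gene is amplified. Of the 8 libraries, the labels file 4 under the genotype NPY1R high and 4 under NPY1R low, NPY1R being the gene of the neuropeptide Y receptor Y1. The series title concerns cells that persist under lapatinib, an inhibitor of EGFR and ERBB2, but the labels of these samples name no drug, no treatment time and no way in which high and low cells were obtained. Both groups are the same line, seeded at the same density. Nothing in the labels says that the 4 samples of a group were separate cultures, so the p-values measure the spread between these samples, which may be technical.

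Proteins of this family control the permeability of the outer mitochondrial membrane. Anti-apoptotic members such as BCL2, BCL-XL (from BCL2L1) and MCL1 bind and restrain the pore-forming effectors BAX and BAK (from BAK1). BH3-only members sense stress and either occupy the anti-apoptotic proteins or activate the effectors, after which cytochrome c leaves the mitochondria and caspases are activated. In luminal breast epithelium BCL2 is known as an estrogen-responsive gene, and in cells dependent on ERBB2 the BH3-only protein BIM (from BCL2L11) is known to mediate death when the receptor is inhibited.

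Total expected counts ranged from 18025648 to 30609791 per library. NPY1R itself had 699 to 1049 CPM (read counts scaled to library size, with libraries scaled by a trimmed mean of log ratios) in the NPY1R high libraries and 90.8 to 104 CPM in the NPY1R low libraries, so the libraries followed their labels. The epithelial identity of the line was visible in all libraries: the 8 luminal markers summed to between 7280 and 9508 CPM. Of 18 markers of immune, endothelial, fibroblast, basal and red blood cells, 7 had no count in any library and 13 stayed under 1 CPM in every library. Their sum was 29.5 to 43.2 CPM in NPY1R high, against 33.5 to 45.1 CPM for NPY1R low, mostly COL1A1, VWF and TP63, and PTPRC, CD3E, KRT14 and DCN were at or near 0. None of the 5 with enough counts to test was called by edgeR, DESeq2 or limma-voom, although 2 had an unadjusted p under 0.05 in edgeR. Of the luminal markers 1 was higher, GATA3, and 2 were lower, EPCAM at -0.30 and FOXA1 at -0.23 on the log2 scale. Over all tested genes 5.78% were higher and 7.81% lower. FOXA1 was not called with upper-quartile factors (edgeR adjusted p 0.0619), nor after a correction for GC content, alone (adjusted p 0.253), beside a replicate block (adjusted p 0.157) or beside a term that sets replicates 1 and 2 apart from 3 and 4 (adjusted p 0.0908). Nor was it called without NPY1R high replicate 3 (adjusted p 0.0632) or 4 (adjusted p 0.0677), or without NPY1R high replicate 3 and NPY1R low replicate 4 together (adjusted p 0.0571). With the GC correction alone the log2 fold change of FOXA1 was still -0.22, while its SE was 0.12 in place of 0.046.

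All 10 members passed the filter on low counts and were tested among 14008 genes with edgeR's quasi-likelihood test. BCL2 rose in NPY1R high, none of the other 9 members passed the threshold of an adjusted p of 0.05, and no member fell. The share of members called, 1 of 10, lies near the share of all tested genes called, which was 13.6% in either direction, 5.78% for rises and 7.81% for falls. The groups did not overlap for 1 of 10 members, against 20.2% of all tested genes. The median log2 fold change was 0.10 over the members and -0.03 over all tested genes. None of the 9 others had an unadjusted p under 0.05, and DESeq2 and limma-voom also called BCL2 alone. The division of all calls depended on the scaling. The trimmed mean, with NPY1R low replicate 4 as its reference library, gave 810 higher and 1094 lower genes (42.5% higher). With each other library as the reference it gave 869 to 995 higher and 865 to 892 lower genes. Upper-quartile factors gave 1009 higher and 783 lower (56.3% higher).

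**Figure D1:**
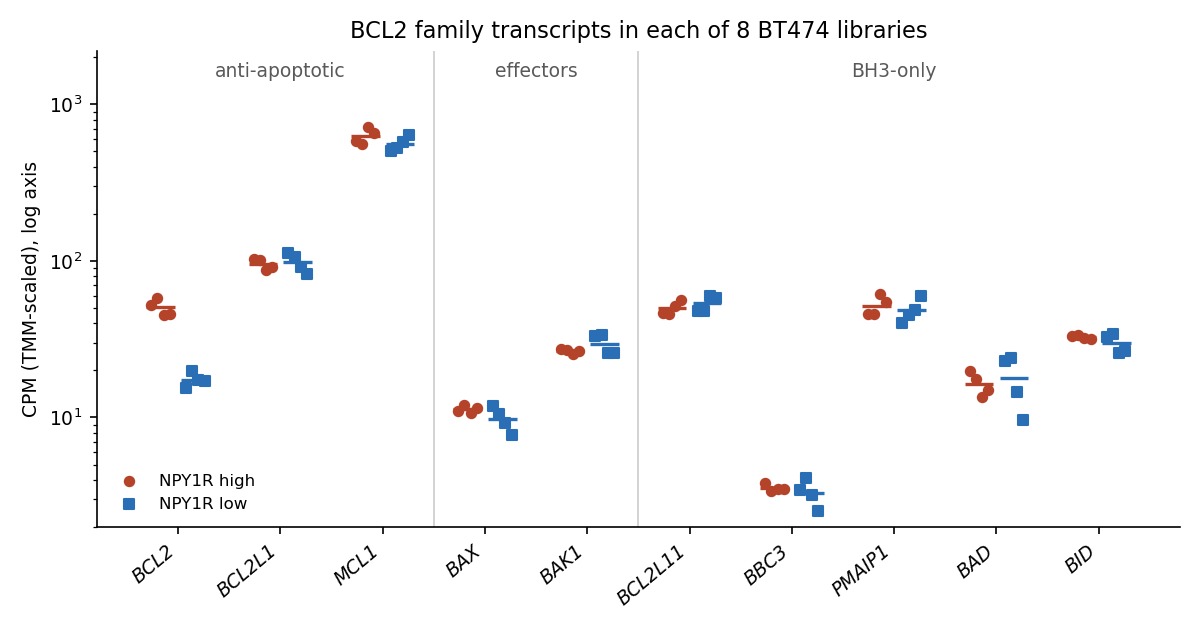
Level of each member in every library, as CPM on a log axis, with circles for NPY1R high, squares for NPY1R low and a horizontal line at each group's mean (n = 4). Points of a group run from replicate 1 on the left to replicate 4 on the right. The 4 NPY1R high values of BCL2, from 45.3 to 58.3 CPM, sit above its 4 NPY1R low values, from 15.4 to 19.7 CPM, while the groups overlap for every other member.

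Among the anti-apoptotic members, BCL2 stood out. BCL2, whose protein holds BAX and the BH3-only proteins in check at mitochondria and the endoplasmic reticulum, lies on chromosome 18 from 63123346 to 63320128 on the minus strand (GRCh38, GENCODE release 29). It had 1520, 1569, 1253 and 834 counts in NPY1R high replicates 1 to 4, and 460, 562, 381 and 438 counts in NPY1R low replicates 1 to 4. Scaled, these were 52.2, 58.3, 45.3 and 45.9 CPM against 15.4, 19.7, 17.4 and 17.2 CPM. Every NPY1R high library was thus above every NPY1R low library, with a gap larger than the spread inside either group. The means were 50.5 ± 6.11 and 17.4 ± 1.74 CPM (SD, n = 4 each). The log2 fold change was 1.53 (SE 0.11, 95% interval 1.297 to 1.770), a 2.89-fold difference (edgeR quasi-likelihood adjusted p 1.64e-05). By size it ranked 146 among the 810 genes called higher. The direction and the call held in all 29 alternatives, between 1.46 and 1.61 on the log2 scale. Among these is the main fit at an adjusted p under 0.01.

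These are bulk libraries, in which fewer cells of a kind and less RNA per cell cannot be told apart.

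MCL1, a short-lived anti-apoptotic protein that binds BAK and many BH3-only proteins, is encoded on chromosome 1 from 150574551 to 150579738. It had by far the highest counts of the 10 members, 582, 562, 719 and 660 CPM in NPY1R high replicates 1 to 4 and 506, 525, 576 and 636 CPM in NPY1R low replicates 1 to 4. Within each group replicates 3 and 4 were above replicates 1 and 2, and the groups overlapped. Its log2 fold change was 0.17 (95% interval -0.04 to 0.38, edgeR quasi-likelihood adjusted p 0.311). A term that separates replicates 1 and 2 from 3 and 4 brought this small difference past the threshold, at 0.17 (adjusted p 0.0383), and with removal of each library's trend on GC content as well it was 0.13 (adjusted p 0.0303). The log2 difference was 0.15 between replicates 1 and 2 of the groups and 0.19 between replicates 3 and 4. Over the 14008 tested genes, the term alone raised the calls from 810 to 1205 higher and from 1094 to 1681 lower.

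BCL2L1, which gives the anti-apoptotic BCL-XL and, by splicing, a shorter pro-apoptotic form that gene counts do not separate, lies on chromosome 20 from 31664452 to 31723989. It had 103, 102, 87.2 and 91.7 CPM in NPY1R high replicates 1 to 4 and 112, 107, 91.6 and 81.9 CPM in NPY1R low replicates 1 to 4. The groups overlapped throughout, and the log2 fold change was -0.03 (95% interval -0.25 to 0.20), whose sign changed with the scaling. The interval excludes a change of the size seen for BCL2 in either direction. BCL2L1 was the single member with expected counts that were not whole numbers. Its values and those of ABALON, an antisense gene that overlaps it by 1903 bases, added up to whole numbers in 8 of 8 libraries (tolerance 0.005). Reads that match both genes were thus divided between them, and the effect of this on the level of BCL2L1 was not tested. ABALON had a log2 fold change of 0.03 (adjusted p 0.899).

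The effectors, BAX and BAK1, did not pass the threshold. BAX, on chromosome 19 from 48954815 to 48961798, had 11.0, 12.01, 10.7 and 11.5 CPM in NPY1R high replicates 1 to 4. In NPY1R low replicates 1 to 4 it had 11.9, 10.5, 9.20 and 7.70 CPM. The NPY1R high values were close together, while the NPY1R low values spread widely enough to overlap them. The log2 fold change of BAX was 0.20 (95% interval -0.11 to 0.50, edgeR quasi-likelihood adjusted p 0.422).

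BAK1, on chromosome 6 from 33572547 to 33580293, encodes the effector that resides in the outer mitochondrial membrane. It had 27.3, 26.8, 25.3 and 26.8 CPM in NPY1R high replicates 1 to 4 and 33.2, 33.5, 25.9 and 25.96 CPM in NPY1R low replicates 1 to 4. Only replicates 1 and 2 of NPY1R low stood above the rest. The log2 fold change was -0.16 (95% interval -0.39 to 0.07).

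The 5 BH3-only members did not pass the threshold either. BCL2L11 encodes BIM, which binds all the main anti-apoptotic proteins, and lies on chromosome 2 from 111119378 to 111168447. It had 46.6, 45.7, 51.3 and 56.4 CPM in NPY1R high replicates 1 to 4 and 48.1, 48.1, 59.8 and 58.1 CPM in NPY1R low replicates 1 to 4. The groups shared nearly the same range, and the log2 fold change was -0.10 (95% interval -0.32 to 0.12).

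PMAIP1 encodes NOXA, a selective partner of MCL1, and lies on chromosome 18 from 59899948 to 59904306. It had 45.6, 45.6, 61.4 and 54.3 CPM in NPY1R high replicates 1 to 4 and 40.1, 44.8, 48.7 and 59.8 CPM in NPY1R low replicates 1 to 4. Replicates 3 and 4 were high in both groups, and the log2 fold change was 0.10 (95% interval -0.21 to 0.40).

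BBC3 encodes PUMA, which neutralises all the main anti-apoptotic proteins, on chromosome 19 from 47220822 to 47232766. It had the fewest reads of the 10 members, 63 to 117 counts per library, or 3.38 to 3.81 CPM in NPY1R high, against 2.51 to 4.10 CPM for NPY1R low. The NPY1R high range lay inside that of NPY1R low, with a log2 fold change of 0.10 (95% interval -0.27 to 0.46).

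BID, on chromosome 22 from 17734138 to 17774770, links death receptors to mitochondria once caspase 8 has cut its protein. It had 33.4, 33.5, 32.2 and 31.7 CPM in NPY1R high replicates 1 to 4 and 32.7, 34.2, 25.7 and 26.7 CPM in NPY1R low replicates 1 to 4. Its coefficient of variation was 2.72% in NPY1R high and 14.3% in NPY1R low. Its log2 fold change was 0.13 (95% interval -0.09 to 0.35).

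BAD, on chromosome 11 from 64269830 to 64284704, encodes a BH3-only protein that growth factor kinases keep inactive by phosphorylation. It was the most variable member, with 19.8, 17.5, 13.6 and 14.9 CPM in NPY1R high replicates 1 to 4 and 23.1, 24.0, 14.6 and 9.62 CPM in NPY1R low replicates 1 to 4. Replicates 1 and 2 were above replicates 3 and 4 in both groups. Its log2 fold change of -0.12 had the widest interval of the 10 members, -0.70 to 0.47, so a change of moderate size was not detectable. By edgeR's quasi-likelihood test it turned to 0.06 without NPY1R low replicate 1 (adjusted p 0.936) and to 0.06 without NPY1R low replicate 2 (adjusted p 0.935).

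**Figure D2:**
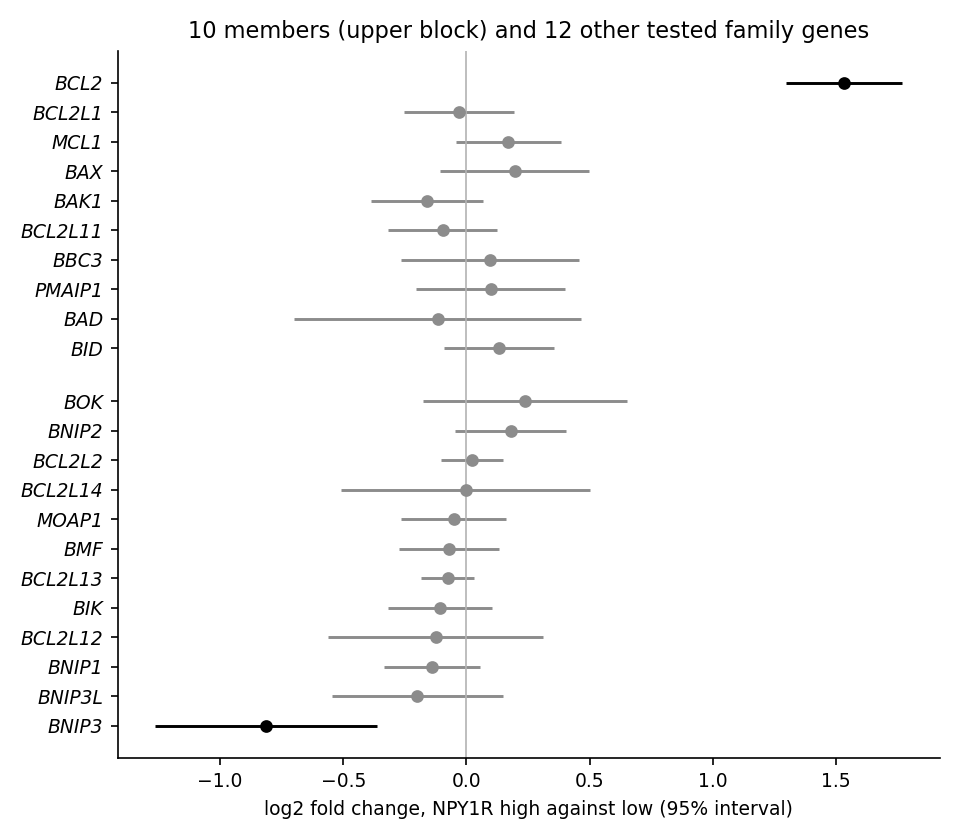
Log2 fold change of NPY1R high against NPY1R low with its 95% interval, for the 10 members in the upper block and 12 other tested genes of the family in the lower block. Black marks genes past an adjusted p of 0.05, which are BCL2 at 1.53 and BNIP3 at -0.81; every grey interval includes 0.

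For each member besides BCL2, the difference between replicate pairs in at least 1 group was larger than the difference between the groups, and its sign went with base composition. The members with a transcript GC content of 54.1% or more, namely BID, BCL2L1, BAK1, BAX, BBC3 and BAD, were higher in replicates 1 and 2 than in replicates 3 and 4 in both groups. For BAD the log2 difference between these replicate pairs was 0.39 in NPY1R high and 0.98 in NPY1R low. MCL1, PMAIP1 and BCL2L11, with a GC content of 50.5% or less, were lower in replicates 1 and 2 in both groups, by 0.22 to 0.35 on the log2 scale. Over all tested genes the median absolute difference was 0.14 in NPY1R high and 0.19 in NPY1R low. BCL2, at 44.7% GC, departed from this order, with a difference of 0.27 in NPY1R high and 0.01 in NPY1R low. Its log2 difference between the groups was 1.66 in replicates 1 and 2 and 1.39 in replicates 3 and 4. For the others it was smaller in both pairs. It changed sign for BAD, at -0.34 and 0.26, and for BAK1, at -0.30 and 0.01. The sign also changed for BCL2L1, at -0.09 and 0.05, BBC3, at -0.06 and 0.29, and BID, at -0.0005 and 0.29. For BAX the difference was 0.03 and 0.39. With each library's GC trend removed, the log2 fold change of BAD was -0.04 (SE 0.11 in place of 0.26) and no member besides BCL2 was called. The labels name no batch.

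**Figure D3:**
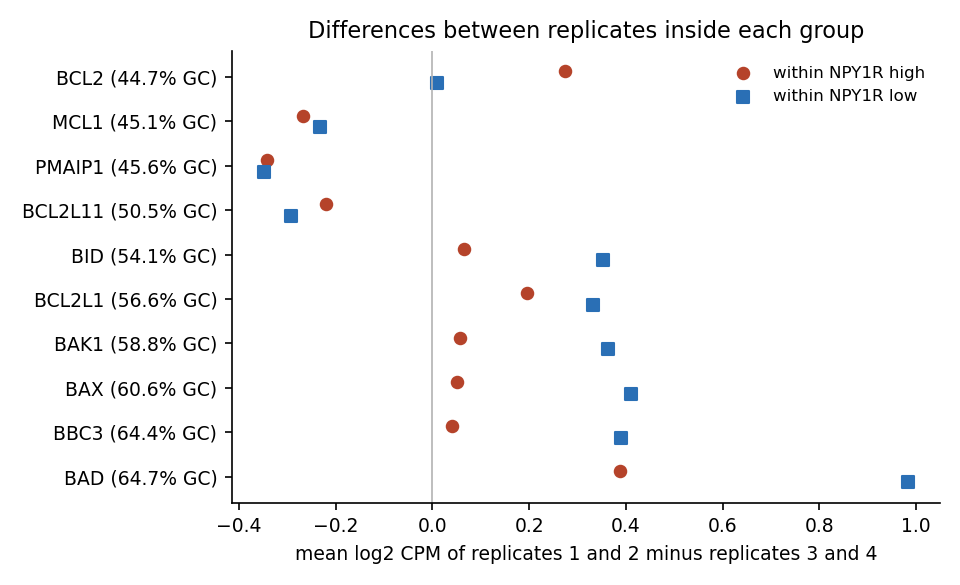
Mean log2 CPM of replicates 1 and 2 minus that of replicates 3 and 4 inside each group, with circles for NPY1R high and squares for NPY1R low, and members ordered by median transcript GC content. The 6 members at the bottom, from 54.1% GC, lie to the right of 0 in both groups, and MCL1, PMAIP1 and BCL2L11 lie to the left.

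Differences between 2 members within a library hardly depend on how libraries are scaled. The log2 CPM of BCL2 minus that of BAX was 2.24, 2.27, 2.07 and 2.00 in NPY1R high replicates 1 to 4. It was 0.37, 0.90, 0.92 and 1.15 in NPY1R low replicates 1 to 4. The groups did not overlap, and the means differed by 1.31. BCL2 minus BCL2L11 averaged 0.0095 ± 0.300 in NPY1R high and -1.61 ± 0.226 in NPY1R low (SD, n = 4 each), again with no overlap. BCL2 minus MCL1 averaged -3.64 ± 0.330 in NPY1R high and -5.00 ± 0.195 in NPY1R low (SD, n = 4 each), also with no overlap. BCL2 is in each of these 3 differences. The 3 differences without BCL2 overlapped between the groups: BCL2L1 minus BAX differed by -0.24, MCL1 minus PMAIP1 by 0.07 and MCL1 minus BAK1 by 0.32. These differences are a description of chosen pairs and were not tested.

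**Figure D4:**
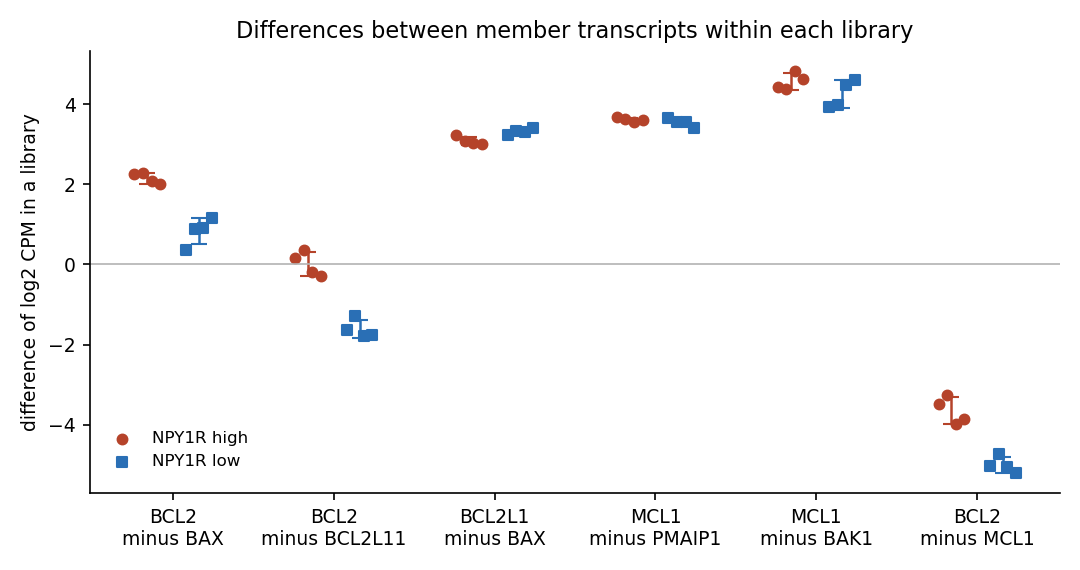
Difference between the log2 CPM of 2 members in each library, with circles for NPY1R high, squares for NPY1R low and bars for the mean and SD (n = 4). The 3 pairs with BCL2 separate the groups, by 1.31 for BCL2 minus BAX, and the 3 pairs without it do not.

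Levels of different genes were compared per kilobase of the median annotated transcript. On that scale MCL1 was highest in both groups, with 266 ± 30.5 CPM per kilobase in NPY1R high and 237 ± 24.6 in NPY1R low (SD, n = 4 each). BCL2L1 followed with 105 ± 8.49 and 107 ± 14.9, then BCL2L11 with 56.7 ± 5.58 and 60.6 ± 7.14, and PMAIP1 with 41.0 ± 6.09 and 38.3 ± 6.66 (SD, n = 4 each). In NPY1R high these 4 did not overlap with their neighbours in the order, and in NPY1R low PMAIP1 overlapped with BAD. BCL2 took rank 9 of 10 in both groups. It had 12.3 ± 1.49 CPM per kilobase in NPY1R high, where it overlapped with BAK1 at 12.4 ± 0.413, and 4.24 ± 0.424 in NPY1R low, where it did not overlap with BAK1 at 13.9 ± 2.01 (SD, n = 4 each). BBC3 was lowest at 2.16 ± 0.114 and 2.01 ± 0.397. BCL2 made up 3.22% ± 0.555 of the summed level per kilobase of BCL2, BCL2L1 and MCL1 in NPY1R high and 1.22% ± 0.126 in NPY1R low (SD, n = 4 each). With the longest transcript in place of the median, BCL2 kept rank 9 while BCL2L11 went from rank 3 to rank 7 in both groups, so its place depends on the transcript length assumed.

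By the naming rule, the genes whose levels over the 8 libraries were most like those of BCL2, by the root mean square difference between log2 CPM centred on each gene's mean, were FUT9, RHOBTB3 and SHISA2, at 0.08, 0.14 and 0.15 among 10433 genes with at least 5 CPM. FUT9, a fucosyltransferase, had 34.4 ± 4.74 CPM in NPY1R high, against 12.7 ± 0.741 CPM for NPY1R low. RHOBTB3 had 290 ± 53.4 and 111 ± 11.4 CPM, and SHISA2 had 170 ± 9.54 and 57.6 ± 10.8 CPM (SD, n = 4 each). Each rose by between 1.39 and 1.56 on the log2 scale. A rise near that of BCL2 follows from choosing genes by likeness to it.

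Of the 20 tested genes nearest to BCL2 on chromosome 18, 10 on each side, 2 were called higher, 2 lower and 16 neither, against 13.6% of all tested genes called. The groups did not overlap for 5 of the 20, against 20.2% of all tested genes, and the median log2 fold change of the 20 was -0.07. The direct neighbours were PHLPP1, a phosphatase gene, at -0.16 (SE 0.09) and KDSR at 0.04 (SE 0.07), neither of them called. The 2 called higher were DSEL at 0.44 (SE 0.12) and DOK6 at 1.28 (SE 0.18), which start 4383 and 6278 kilobases from the start coordinate of BCL2. LMAN1 at -0.37 (SE 0.07) and RNF152 at -0.78 (SE 0.12) were lower. PMAIP1, a member of the family, is among the 20. This stretch of genes was looked at after the value of BCL2 had been seen.

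**Figure D5:**
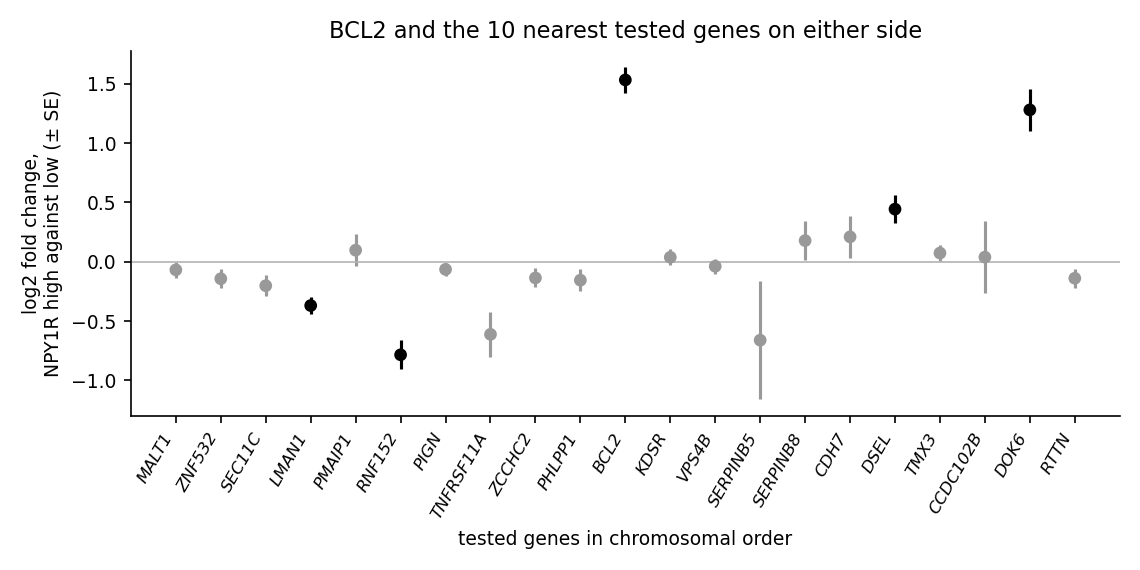
Log2 fold change of NPY1R high against NPY1R low (± SE) for BCL2 and the 10 nearest tested genes on either side, in the order in which they lie on the chromosome. Black marks genes past an adjusted p of 0.05. BCL2 stands at 1.53, while its direct neighbours PHLPP1 and KDSR stand at -0.16 and 0.04.

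Beyond the members, 12 of 16 other genes of the family had enough counts to test. Of these 12, 1 was called, against 13.6% of all tested genes. BNIP3, a mitochondrial protein known as a hypoxia target and mitophagy receptor, was at 72.1 ± 24.1 CPM in NPY1R low and fell to 41.0 ± 3.42 CPM in NPY1R high (SD, n = 4 each), with a log2 fold change of -0.81 (SE 0.20, edgeR quasi-likelihood adjusted p 0.0237). It was no longer called without NPY1R high replicate 1, 2, 3 or 4 or without NPY1R low replicate 3, with adjusted p values of 0.0644, 0.0667, 0.0507, 0.0872 and 0.0715. BCL2L2, which encodes the anti-apoptotic BCL-W, had 56.4 and 55.5 CPM on average and a log2 fold change of 0.02 (95% interval -0.10 to 0.15). The effector relative BOK was at 0.24 (95% interval -0.18 to 0.65), and the BH3-only genes BIK and BMF were at -0.11 and -0.07. BCL2A1, BCL2L10, HRK and BCL2L15 had too few counts to test, with means of at most 0.256 CPM. The median of the 12 tested genes was -0.07.

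Of 12 tested genes of the list of apoptosome parts, caspases and nucleases, edgeR's quasi-likelihood test called 0, as did DESeq2 and limma-voom, against 13.6% of all tested genes called by edgeR, and 1 had an unadjusted p under 0.05, CASP8 at 0.17. The median log2 fold change of these 12 was -0.02. CYCS, the gene of cytochrome c, was at 0.02 (95% interval -0.14 to 0.19).

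Of 8 tested inhibitor of apoptosis genes and their antagonists, 1 was called, against 13.6% of all tested genes. BIRC5, which encodes survivin, an inhibitor of apoptosis family member that works in mitosis, fell to 42.6 ± 6.30 CPM in NPY1R high against 82.5 ± 7.55 in NPY1R low (SD, n = 4 each), with a log2 fold change of -0.95 (SE 0.11). XIAP, the direct caspase inhibitor, was at -0.20 with an adjusted p of 0.147. DIABLO, its antagonist, was at 0.01.

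The death receptor list had 2 of 9 tested genes called, against 13.6% of all tested genes. TNFSF10, the ligand TRAIL, rose to 16.8 ± 0.801 CPM in NPY1R high against 11.5 ± 2.03 in NPY1R low (SD, n = 4 each), a log2 fold change of 0.55 (SE 0.12, adjusted p 0.0162), and was not called without NPY1R low replicate 3 (adjusted p 0.0559). TNFRSF10C, a TRAIL decoy receptor, fell by 1.44 on the log2 scale (SE 0.33) at under 1 CPM in both groups. It was not called without NPY1R high replicate 1 or 3 or without NPY1R low replicate 2 or 3, with adjusted p values of 0.0567, 0.0659, 0.0510 and 0.0520.

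Of 9 tested channel and fission genes, 1 was lower, the membrane protein gene TMBIM6, against 7.81% of all tested genes. TMBIM6 had 847 ± 31.9 CPM in NPY1R high and 1097 ± 79.6 in NPY1R low (SD, n = 4 each). Its log2 fold change was -0.37 (SE 0.06). Of 14 tested genes that govern the turnover or sequestration of family proteins, 1 was lower, USP9X, a deubiquitinase known to stabilise MCL1 protein, at -0.29 (SE 0.06, adjusted p 0.0119). Without NPY1R high replicate 3 or 4 it was not called, with adjusted p values of 0.0774 and 0.0736. Nor was it called without NPY1R high replicate 3 and NPY1R low replicate 4 together (adjusted p 0.0717), a pair chosen after the data were seen.

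Of 18 tested transcription factors known to act on family genes, 4 were higher and 0 lower in edgeR's quasi-likelihood test. Over all tested genes 5.78% were higher and 7.81% lower. At an unadjusted p under 0.05 also 0 of the 18 were lower, and DESeq2 and limma-voom each called 4. The 4 called by edgeR were PGR at 1.71 (SE 0.11), GATA3 at 0.60 (SE 0.11), ESR1 at 0.59 (SE 0.05) and MYC at 0.56 (SE 0.07) on the log2 scale. FOXO3, a known activator of BCL2L11, was at 0.21 with an adjusted p of 0.116, and E2F1 was at -0.10. These genes were listed with their earlier results known, so their count is a description.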

How the data were processed

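The authors deposited expected counts per gene symbol, estimated from the reads of each library and not scaled. Libraries were prepared with a strand-preserving kit (RNA input 200 ng), per the labels' protocols. The submitters' processing notes name STAR 2.5.2, RSEM 1.3.0 and hg38, with no role or order. The annotation and the strand setting are not given in the sources used here. Between 7.97% and 8.76% of the values of a library were not whole numbers. The 8 single-sample tables held the same values as the series table (0 differing). Pairs of libraries within a group differed by more than sampling noise (chi-square of 5.75 to 62.25 per degree of freedom).

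Expected counts were rounded, filtered with filterByExpr (minimum count 10), scaled by TMM and compared with edgeR 4.0.16 (R 4.3.3) by the quasi-likelihood test without covariates, with Benjamini-Hochberg adjustment over 14008 genes. Intervals are the log2 fold change ± the t quantile times its SE, and their width reflects the spread between samples. This SE is the absolute log2 fold change divided by the square root of the F statistic of the quasi-likelihood test. Log2 CPM used a prior count of 2. DESeq2 1.42.0 and limma 3.58.1 (voom) were alternatives. Transcript lengths and GC content, known for 94.1% of tested genes, came from GENCODE release 29. In simulated counts with the group sizes of NPY1R high against low, 200 genes were given a true log2 fold change. The test found 80.5% of the 200 at a change of 1 (13877 tested) and 31% at 0.5 (13892 tested). It also called 10 and 4 unchanged genes. In the data 13.6% of tested genes were called, a larger share than was changed in the simulations. The adjustment thus differs, and these percentages are not the power of the comparison itself.

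The members and further gene lists were chosen with earlier results of these data known. Named genes were NPY1R, the members, ESR1 and PGR, up to 4 called genes per list and direction with the largest change, the highest marker genes, and the 3 nearest profiles to each called member. Other genes were named after their values were seen. Some genes and the list tied to them are not reported here.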

Additional observations from a re-analysis of the deposited data

How the results depend on the processing

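Alternatives were other scalings, filters and tests, a replicate block, and a term for replicates 1 and 2 against 3 and 4. Others were a GC offset, leaving out libraries, and the main fit at an adjusted p under 0.01. The term with the GC offset, and leaving out NPY1R high replicate 3 and NPY1R low replicate 4 together, were chosen after seeing the data. BCL2 was called higher in all 29 alternatives, with adjusted p values up to 0.000197, and no member was called lower in any. In 27 alternatives BCL2 was the single member called. In 2, those with the term for replicates, 2 members were called higher, the other being MCL1. Those 2 fits also called more of the 14008 tested genes than the main fit, which called 810 higher and 1094 lower. The term alone gave 1205 higher and 1681 lower, and the term with the GC offset gave 1649 higher and 2479 lower. Leaving out each library in turn gave 1.46 to 1.61 for BCL2.

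Over all genes, the calls were 1681 lower with the term, 1739 lower with the GC offset, 1311 higher and 1967 lower with the replicate block and GC offset, 1649 higher and 2479 lower with the term and GC offset, and 470 higher and 562 lower at an adjusted p under 0.01. Leaving out each library gave 624 to 1068 higher and 625 to 1064 lower. The lower count fell most without NPY1R high replicate 3 (710), NPY1R high replicate 4 (625) or NPY1R low replicate 1 (678). The causes were not tested. The replicate block alone gave 805 higher and 1028 lower and changed no member's call. Same-numbered libraries deviated together with correlations of 0.339, 0.157, 0.0907 and 0.0178 across genes. The labels do not say whether same-numbered libraries were handled together, and the main fit did not pair them.

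Uncalled values near 0 changed sign. BCL2L1 moved from -0.03 to 0.025 with upper-quartile factors, 0.013 with library totals, 0.0023, 0.0024, 0.0098, 0.010 and 0.0036 with NPY1R high replicates 1 and 2 and NPY1R low replicates 1, 2 and 3 as the scaling reference, 0.010 without a filter, 0.012 at 1 CPM in 4 libraries, and 0.0089, 0.0092 and 0.0093 with the GC offset alone, with the block and with the term. Leaving out each library gave -0.070 to 0.070 for BCL2L1 and -0.29 to 0.064 for BAD. Among the 10 members depth limits BBC3 most, at 63 to 117 counts.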

Other observations

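Among the 4 NPY1R high libraries, BCL2 and NPY1R were ordered differently. Replicates 3 and 4 had the most NPY1R, 1049 and 950 CPM, and the least BCL2, 45.3 and 45.9 CPM. Replicates 1 and 2 had 699 and 728 CPM of NPY1R and 52.2 and 58.3 CPM of BCL2. With 4 libraries this order was not tested. For the other members, the sign of the difference between these replicate pairs went with transcript GC content. BCL2 departed from that pattern, as described above.

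GPR137, a protein-coding gene on the opposite strand that overlaps BAD by 14643 bases, ranged from 9.86 to 21.0 CPM over the libraries, close to the 9.62 to 24.0 CPM of BAD. It had a log2 fold change of -0.28 (edgeR quasi-likelihood adjusted p 0.542). Both genes had whole-number counts in all 8 libraries.

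Dixon's ratio was examined for 34 group values of the members, NPY1R and the within-library differences. In 0 of them was a library apart from the other 3 at the 95% level, where chance alone gives 1.7. This ratio looks for a single library apart and does not mark a split between pairs of replicates, such as that described above.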
